A study of Arabidopsis thaliana with 4 samples.

Results

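The PYK10 complex and the ER body genes of Arabidopsis thaliana were examined as 10 loci, found by their locus identifiers among the 32678 loci of the deposited expression table. They were the beta-glucosidase genes PYK10 (also named BGLU23, AT3G09260), BGLU21 (AT1G66270) and BGLU22 (AT1G66280), the ER body formation genes NAI1 (AT2G22770) and NAI2 (AT3G15950), the jacalin-related lectin genes PBP1 (AT3G16420), JAL22 (AT2G39310) and JAL33 (AT3G16450), and the GDSL lipase-like genes GLL22 (AT1G54000) and GLL23 (AT1G54010). RNA from whole plants was sequenced in 2 genotypes, wild type (WT) and 35S:TEM1, with 2 samples each and 4 in all. Each sample pooled 20 plants that were 10 days old, had been kept under LD at 22 °C and were taken at ZT18 (zeitgeber time). TEM1 belongs to the RAV transcription factors and is known for holding back flowering, and in 35S:TEM1 it is driven by the 35S promoter of cauliflower mosaic virus, which is active in most plant cells rather than in the cells where TEM1 is normally on. How many independent transgenic lines were used is not given in the sources used here, nor is it said whether the 2 samples of a genotype came from separate sowings, so a p-value here reflects the spread between these pools alone. Values given in pairs are replicate 1 and then replicate 2, and 35S:TEM1 precedes WT.

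ER bodies are spindle-shaped compartments of the endoplasmic reticulum found in the seedling epidermis and the roots of Arabidopsis and its relatives. They store beta-glucosidases, above all PYK10, apart from the substrates of these enzymes. When cells break, the enzymes meet jacalin-related lectins and GDSL lipase-like proteins and form large aggregates, the PYK10 complex, and they can then release defence compounds from glucosides such as indole glucosinolates and scopolin. NAI1 is a bHLH transcription factor needed for normal expression of PYK10 and NAI2, and NAI2 is an ER body protein without which the bodies do not form.

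The 3 beta-glucosidases are related in sequence, BGLU21 and BGLU22 most closely. Their coding sequences are shown here at the 3' end. The codons before the stop codon specify the signal that returns these enzymes to the endoplasmic reticulum. Few bases of this end differ between the 3 genes. The last 60 coding bases of each, 5' to 3' and ending with the stop codon, were read from RefSeq (TAIR10.1 assembly), and capitals mark the 5 positions at which the 3 genes are not all the same.
PYK10: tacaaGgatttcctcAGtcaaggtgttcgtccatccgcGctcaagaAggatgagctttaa
BGLU21: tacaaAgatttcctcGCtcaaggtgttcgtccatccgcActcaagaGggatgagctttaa
BGLU22: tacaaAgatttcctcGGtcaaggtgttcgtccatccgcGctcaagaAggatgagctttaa

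Over the whole coding sequence, BGLU21 and BGLU22 were 93.3% identical, and PYK10 was 83.4% identical to BGLU21 and 83.1% to BGLU22. BGLU21 and BGLU22 are neighbours on chromosome 1, as are GLL22 and GLL23, whose coding sequences were 91.2% identical. Reads that fit 2 copies could therefore be split between them. Of all stretches of 50 bases in the transcripts, 5.03% in BGLU21 and 4.92% in BGLU22 also occurred in the other copy, 3.04% in GLL22 and 3.41% in GLL23 occurred in each other, and 3.50% in PBP1 occurred in its neighbour JAL31. For PYK10 the share was 3.30%, all of it with AT3G09250, which overlaps its 3' end on the opposite strand. AT3G09250 had an RPKM (reads per kilobase of locus, divided by library size) of 26.7 to 30.9 over the 4 samples, and its groups overlapped.

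In WT the level per length spanned about 2 orders of magnitude between these genes, with PYK10 and PBP1 far above the rest. Their mean RPKM was 238 and 183. JAL22, JAL33, GLL23 and NAI2 followed with means from 29.6 to 38.6, each overlapping the next in the range of its samples, so their order is not resolved. NAI1 had 4.599, above BGLU22, BGLU21 and GLL22 with 3.67, 2.84 and 2.35, of which neighbours again overlapped. In 35S:TEM1 the order of the lower genes differed: BGLU21, GLL22 and BGLU22 had means of 15.0, 10.6 and 10.3 and lay above NAI1 with 4.66, and the ranges of GLL22 and BGLU22 overlapped. The 10 genes together made up 0.132% and 0.124% of the summed RPKM in 35S:TEM1 replicates 1 and 2, against 0.0887% and 0.0670% in WT replicates 1 and 2.

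**Figure D1:**
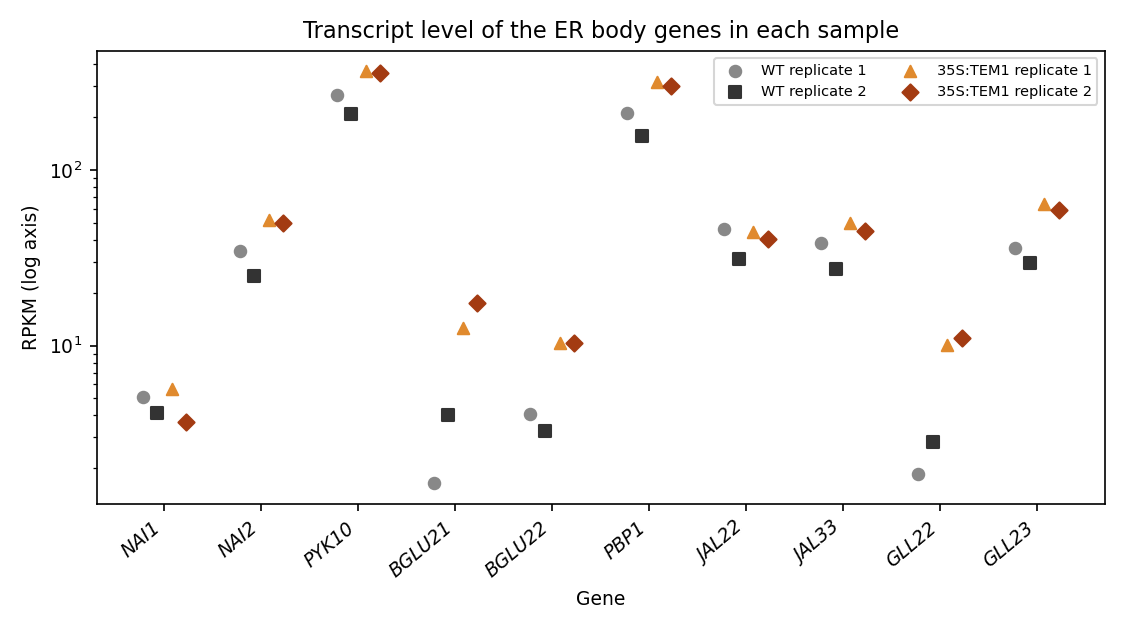
RPKM (log axis) of the 10 genes in each of the 4 samples, with 1 point per sample. In NAI1 and JAL22 the points of the genotypes overlap, and in the other 8 genes both 35S:TEM1 points lie above both WT points.

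Of the 10 genes, 7 were higher in 35S:TEM1, 0 were lower and 3 did not pass, with limma on log2(RPKM + 1) and an adjusted p under 0.05 over all 17746 genes tested. By the same rule 18.3% of all genes tested were higher and 7.37% lower, together 25.7%. In 8 of the 10 both 35S:TEM1 samples lay above both WT samples and in 0 below, against 47.4% and 20.7% of all genes tested. At an unadjusted p under 0.05 in limma, 8 of the 10 were higher and 0 lower. The median log2 fold change of the 10 was 0.77, against 0.12 over all genes tested. With every sample set to the same median, these medians were 0.62 and -0.03 and 6 of the 10 were higher. Without 35S:TEM1 replicate 1 the count of higher genes fell to 4, namely BGLU21, BGLU22, GLL22 and GLL23. In whole plants, more cells of a kind and more RNA per cell cannot be told apart.

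PYK10, the main protein of ER bodies, reached an RPKM of 365 and 355 in the 35S:TEM1 samples, and of 267 and 208 in the WT samples. The 35S:TEM1 samples were close together and both lay above the WT samples, which were further apart from each other. The mean rose from 238 ± 41.7 to 359.9 ± 6.98 (SD, n = 2 each), or 1.51-fold, with a log2 fold change of 0.61 ± 0.12 (SE, limma adjusted p = 0.0174). PYK10 no longer passed when 35S:TEM1 replicate 1 was left out (limma adjusted p = 0.0930), when 35S:TEM1 replicate 2 was left out (0.0720) and with equal sample medians (0.0523), where the log2 fold change was 0.59, 0.63 and 0.46.

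BGLU21, a root beta-glucosidase that splits scopolin, was at an RPKM of 12.6 and 17.4 in 35S:TEM1 and at 1.64 and 4.04 in WT. Both 35S:TEM1 samples lay above both WT samples, although the WT samples differed by 2.46-fold from each other. The means were 15.0 ± 3.35 and 2.84 ± 1.70, 5.28-fold apart (log2 fold change 2.12 ± 0.31, limma adjusted p = 0.00577). Its close copy BGLU22 was at 10.3 and 10.4, against 4.06 and 3.28 in WT. These groups were also apart, with a 2.81-fold difference of the means (log2 fold change 1.28 ± 0.12, limma adjusted p = 0.00138).

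Within the family, PYK10 took the bulk of the transcript level in each sample, but a smaller share in 35S:TEM1. Of the summed RPKM of the 3 beta-glucosidases, PYK10 made up 94.1% and 92.8% in 35S:TEM1 and 97.9% and 96.6% in WT. BGLU21 made up 3.26% and 4.54% against 0.601% and 1.87%, and BGLU22 2.65% and 2.71% against 1.49% and 1.52%. The difference in fold change between the 3 genes was not tested.

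NAI1, the transcription factor of the group, showed no separation of the genotypes. Its RPKM was 5.68 and 3.65 with the transgene and 5.09 and 4.11 without, so that both WT values lay between the 35S:TEM1 values. The log2 fold change was -0.0016 with a 95% interval from -0.47 to 0.47 (limma adjusted p = 0.996), which leaves room for a modest change in either direction.

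NAI2, which NAI1 is known to control, stood at 51.9 and 50.1 RPKM in the 35S:TEM1 pools and at 34.5 and 24.8 in the WT pools. The groups were apart, and the mean rose 1.72-fold, from 29.6 ± 6.86 to 51.0 ± 1.29 (log2 fold change 0.78 ± 0.15, limma adjusted p = 0.0148). Leaving out 35S:TEM1 replicate 1 or 2 raised its adjusted p in limma to 0.0724 and 0.0567, with log2 fold changes of 0.76 and 0.81.

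Among the lectins, PBP1 (PYK10-binding protein 1), which binds the PYK10 enzyme in broken cells, was measured at 317 and 299.7 RPKM in the 35S:TEM1 pools and at 210.1 and 156 in the WT pools. The mean rose 1.68-fold, from 183 ± 38.2 to 308 ± 12.2 (log2 fold change 0.76 ± 0.14, limma adjusted p = 0.0126), a call lost without 35S:TEM1 replicate 1 (0.0693). JAL33 had 49.7 and 45.2 against 38.5 and 27.2, with the groups apart but a log2 fold change of 0.54 ± 0.16 that did not pass (limma adjusted p = 0.0576). JAL33 passed without WT replicate 1 (limma adjusted p = 0.00416) and with each sample scaled to the same RPKM sum (0.0474). JAL22 had 44.5 and 40.4 against 46.0 and 31.2, and its groups overlapped. Its log2 fold change was 0.16, with a 95% interval from -0.27 to 0.59 (limma adjusted p = 0.542). Leaving out WT replicate 1 brought it past the threshold as higher (0.43, limma adjusted p = 0.0295), and leaving out WT replicate 2 turned its sign (-0.12).

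The lipase-like genes, whose proteins are found in the PYK10 complex, both rose. GLL22 went from 1.86 and 2.83 RPKM in WT to 10.13 and 11.1 in 35S:TEM1. The gap between the genotypes was several times the distance between samples of either one, and the mean rose 4.52-fold, from 2.35 ± 0.69 to 10.6 ± 0.68 (log2 fold change 1.81 ± 0.16, limma adjusted p = 0.00119). GLL23, more abundant in each sample, had 63.9 and 59.3 against 35.8 and 29.3, a 1.89-fold rise (log2 fold change 0.90 ± 0.11, limma adjusted p = 0.00355). GLL22 made up 13.7% and 15.8% of the summed RPKM of the pair in 35S:TEM1 and 4.93% and 8.80% in WT.

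**Figure D2:**
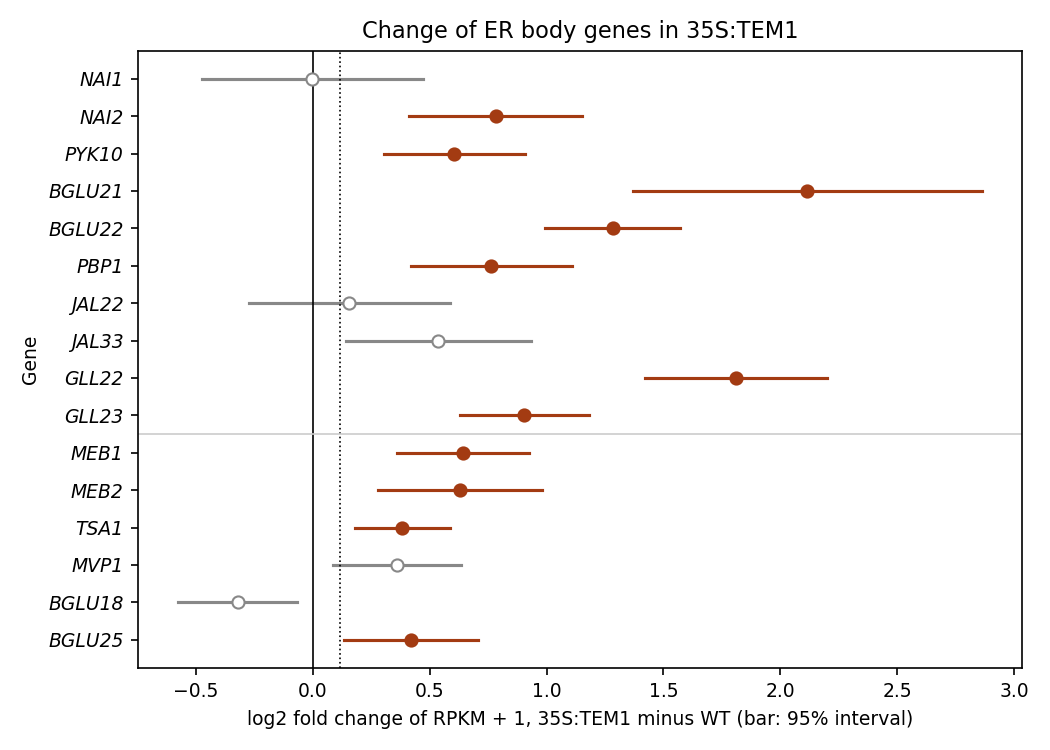
Log2 fold change of RPKM + 1 (35S:TEM1 minus WT) with its 95% interval from limma, for the 10 genes above the grey line and 6 related genes below it. Filled points passed an adjusted p under 0.05 over all genes tested, open points did not, and the dotted line is the median of all genes tested (0.12). BGLU21, GLL22 and BGLU22 lie farthest to the right, with log2 fold changes of 2.12, 1.81 and 1.28.

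The rises of BGLU21, BGLU22, GLL22 and GLL23 passed in each of the 14 alternative settings tried, with log2 fold changes of 1.65 to 2.58, 1.12 to 1.48, 1.60 to 2.16 and 0.75 to 1.04. In PYK10, NAI2 and PBP1 the rise was smaller, and 11, 12 and 13 of the 14 settings passed. The samples of 1 genotype also differed from each other. In WT, 8 of the 10 genes were lower in replicate 2 than in replicate 1, against 8278 of the 17746 genes tested. BGLU21 and GLL22 were the exceptions. In 35S:TEM1, 7 of the 10 were lower in replicate 2 than in replicate 1, against 10295 of the 17746. BGLU21, GLL22 and BGLU22 were the exceptions. Most genes tested were thus also lower in 35S:TEM1 replicate 2, so that order is not particular to the 10.

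**Figure D3:**
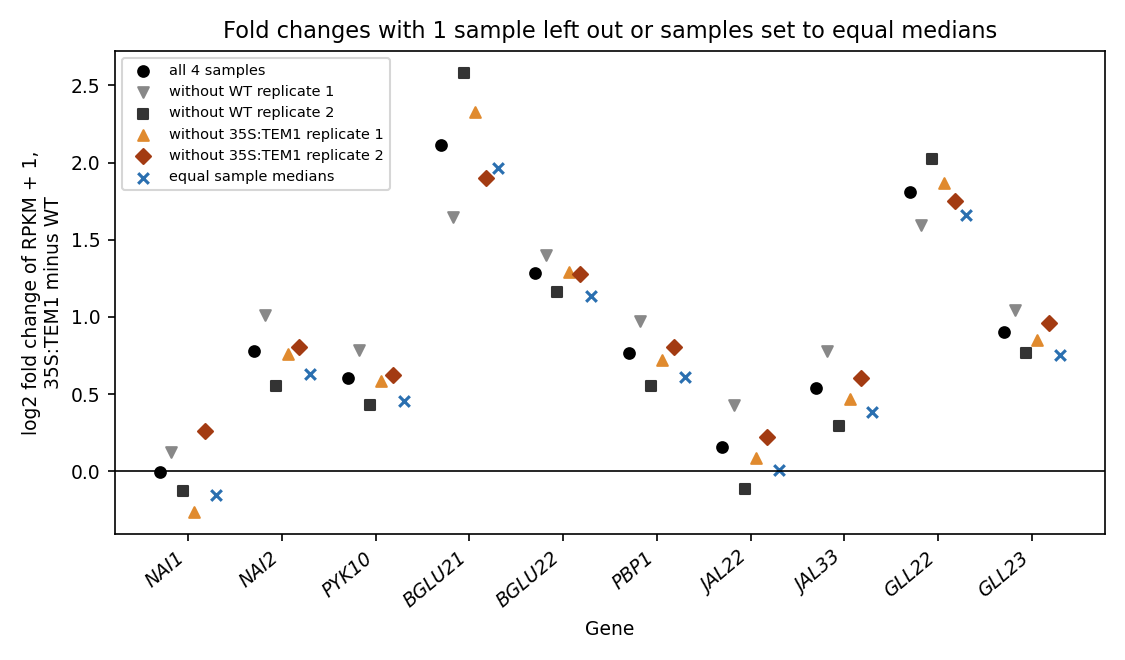
Log2 fold change of RPKM + 1 (35S:TEM1 minus WT) of the 10 genes with all 4 samples, with each sample left out in turn, and with the samples set to equal medians. BGLU21, BGLU22 and GLL22 stay above 1 in each of these, while NAI1 and JAL22 have points on both sides of 0.

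Upstream sequence is shown for 3 genes that rose, because PYK10 and NAI2 are known to depend on the same factor, NAI1, and GLL22 had one of the largest rises. The 250 bases before the annotated start, written 5' to 3' on the strand of the gene, were read from RefSeq as well. Coordinates are those of TAIR10.1, the authors' build is named TAIR10, and no measured value rests on these coordinates. Capitals mark the 6-letter G-box CACGTG, to which many bHLH factors bind, and the pair of short motifs known for RAV factors, CAACA and CACCTG, on either strand, so that CAACA can appear as TGTTG.
PYK10, minus strand, chr3:2843782-2844031: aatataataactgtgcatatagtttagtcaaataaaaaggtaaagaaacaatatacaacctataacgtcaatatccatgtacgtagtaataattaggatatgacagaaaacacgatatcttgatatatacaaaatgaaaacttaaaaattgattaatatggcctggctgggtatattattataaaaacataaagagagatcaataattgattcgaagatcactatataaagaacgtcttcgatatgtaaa
NAI2, minus strand, chr3:5402654-5402903: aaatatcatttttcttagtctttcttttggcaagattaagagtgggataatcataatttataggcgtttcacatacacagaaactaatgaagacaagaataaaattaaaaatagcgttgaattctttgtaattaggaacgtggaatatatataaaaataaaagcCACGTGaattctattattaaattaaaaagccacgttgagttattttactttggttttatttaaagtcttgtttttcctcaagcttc
GLL22, minus strand, chr1:20156521-20156770: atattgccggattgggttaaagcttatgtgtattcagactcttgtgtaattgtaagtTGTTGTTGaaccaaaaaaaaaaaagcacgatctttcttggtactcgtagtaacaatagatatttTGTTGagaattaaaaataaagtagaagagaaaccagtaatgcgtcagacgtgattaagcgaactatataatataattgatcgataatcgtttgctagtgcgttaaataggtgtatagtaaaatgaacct

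CACGTG occurred in 1 of the 10 windows, that of NAI2, and in 6.58% of the windows of 26711 nuclear protein-coding genes. CAACA occurred in 6 of the 10 and in 47.3% of all windows, and GLL22, BGLU22 and JAL33 held 3 copies each. The wider E-box CANNTG, of which CACGTG and CACCTG are cases, occurred in 5 of the 10 and in 55.3% of all. CACCTG occurred in 0 of the 10 and in 2.55% of all, and none of these motifs was in the windows of PYK10 and BGLU21. A match is no evidence of binding, and a missing match speaks of these 250 bases alone.

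Beyond the 10 genes, 3 of 5 other ER body genes rose, 0 fell and 2 did not pass. Of all genes tested, 18.3% were higher and 7.37% lower. The median log2 fold change of the 5 was 0.38. At an unadjusted p under 0.05 in limma, 4 were higher and 1 lower. MEB1, a membrane protein of ER bodies, was at 8.26 and 7.24 RPKM against 4.89 and 4.32 (log2 fold change 0.64 ± 0.12, limma adjusted p = 0.0118). Its relative MEB2 had 1.91 and 1.63 against 0.755 and 0.822 (0.63 ± 0.14, adjusted p = 0.0247). TSA1, a close homologue of NAI2, had 19.3 and 19.5 against 14.5 and 14.8 (0.38 ± 0.08, adjusted p = 0.0207). MVP1, a GDSL lipase-like protein needed for normal ER shape, had 35.4 and 32.6 against 28.8 and 23.8 and did not pass (0.36, adjusted p = 0.0618), but did without WT replicate 1 (0.49, adjusted p = 0.0190). MEB2 lost its call without WT replicate 1 (adjusted p = 0.0570). The count of higher genes in this list dropped to 0 when 35S:TEM1 replicate 1 was left out, and to 1 when 35S:TEM1 replicate 2 was, or when samples were set to equal medians or quantile normalized.

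BGLU18, the beta-glucosidase of the ER bodies that form in wounded leaves, lay the other way. Its RPKM was 94.0 and 107, against 134 and 118 in WT. Both 35S:TEM1 samples were below both WT samples, but the log2 fold change of -0.32 ± 0.10 did not pass (limma adjusted p = 0.0680). Among the other scalings and the left-out samples, it passed as lower with equal sample medians (-0.47, adjusted p = 0.0331) and without WT replicate 2 (-0.42, adjusted p = 0.0364). Of the other 4 relatives of PYK10 in the clade from BGLU18 to BGLU25, BGLU25 alone was tested, with 11.8 and 11.7 against 9.46 and 7.66 (0.42 ± 0.12, adjusted p = 0.0464). That call was lost in 7 settings, among them each 35S:TEM1 sample left out (adjusted p = 0.189 and 0.155) and both other scalings by median and quantile. BGLU20 was listed at 0 in all 4 samples, BGLU19 reached at most 0.37 and BGLU24 at most 0.16. BHLH18, BHLH19 and BHLH25, the bHLH genes most like NAI1, had an RPKM of at most 0.08 in any sample and were not tested.

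Other jacalin-related genes went both ways: of 8 tested, 2 rose, 2 fell and 4 did not pass. Their median log2 fold change was -0.19, and of all genes tested 18.3% were higher and 7.37% lower. In 2 of the 10 listed both 35S:TEM1 samples lay above both WT samples, and in 6 below. The 2 that rose lie beside PBP1 and JAL33 on chromosome 3. JAL32, on the other side of JAL33, was below WT with 0.714 and 0.580 RPKM against 1.12 and 1.44 and was not tested. Leaving out 35S:TEM1 replicate 1 left 1 higher and 1 lower, leaving out 35S:TEM1 replicate 2 left 1 lower, quantile normalization gave 4 lower, and a minimum mean RPKM of 5 gave 0 lower. JAL31, next to PBP1, was at 10.2 and 10.6 RPKM against 6.06 and 5.48 (log2 fold change 0.76 ± 0.10, limma adjusted p = 0.00420). JAL34, next to JAL33, had 62.8 and 59.1 against 39.7 and 29.7 (0.81 ± 0.14, adjusted p = 0.0102, but 0.0565 without 35S:TEM1 replicate 1). JAL34 shares 19.3% of its 50-base stretches, counted on either strand, with JAL35. Without a stated strand setting, their reads may not have been told apart. NSP4, a nitrile-specifier protein with a jacalin domain from the same stretch of chromosome 3, had 0.988 and 0.922 against 2.73 and 3.87 (-1.13 ± 0.17, adjusted p = 0.00633). MBP2, a myrosinase-binding protein, had 1.17 and 0.905 against 2.22 and 1.94 (-0.60 ± 0.15, adjusted p = 0.0311), a call lost with any 1 sample left out (adjusted p from 0.0517 to 0.149). NSP4 shares 23.5% of its 50-base stretches with NSP1 and NSP3.

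The genes that make indole glucosinolates, a substrate of PYK10, did not rise with the enzymes. Of 10 tested, 0 were higher, 4 were lower and 6 did not pass in limma, with a median log2 fold change of -0.30. Over all genes tested the limma shares were 18.3% higher and 7.37% lower. At an unadjusted p under 0.05 in limma, 0 were higher and 5 lower. In 5 of the 12 listed genes both 35S:TEM1 samples lay below both WT samples. In 2 they lay above, and in 5 the groups overlapped. MYB51, a transcription factor that turns on this pathway, was at 1.68 and 2.196 RPKM against 3.80 and 7.19 in WT (-1.10 ± 0.26, limma adjusted p = 0.0264). MYB34, also in the list, lay the other way with 16.7 and 15.7 against 12.4 and 15.0. It did not pass (0.24, limma adjusted p = 0.174). CYP79B3 and CYP79B2, which take tryptophan into the pathway, had 14.6 and 13.8 against 22.5 and 21.3 (-0.59 ± 0.09, adjusted p = 0.00626), and 8.61 and 8.17 against 10.9 and 13.9 (-0.50 ± 0.13, adjusted p = 0.0370). The calls of MYB51 and CYP79B2 were lost without 35S:TEM1 replicate 1 (adjusted p = 0.113 and 0.122), without 35S:TEM1 replicate 2 (0.0597 and 0.147) and with no filter on low values (0.0593 and 0.0687), and that of CYP79B2 also without WT replicate 2 (0.0925). Without either 35S:TEM1 replicate the count of lower genes was 1, and it was 2 without WT replicate 2, with no filter on low values or under a minimum mean RPKM of 5. Of 6 tested genes of coumarins, the family to which scopolin belongs, 1 was higher and 0 lower (median 0.27). This was near the 18.3% higher and 7.37% lower of all genes tested. At an unadjusted p under 0.05 in limma the counts were the same. That gene was ABCG37, an exporter in roots, with 3.08 and 2.49 against 1.38 and 1.33 (0.68 ± 0.14, adjusted p = 0.0182, but 0.117 without 35S:TEM1 replicate 1 and 0.0533 with quantile normalization). Without WT replicate 2 the coumarin list held 2 higher genes.

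**Figure D4:**
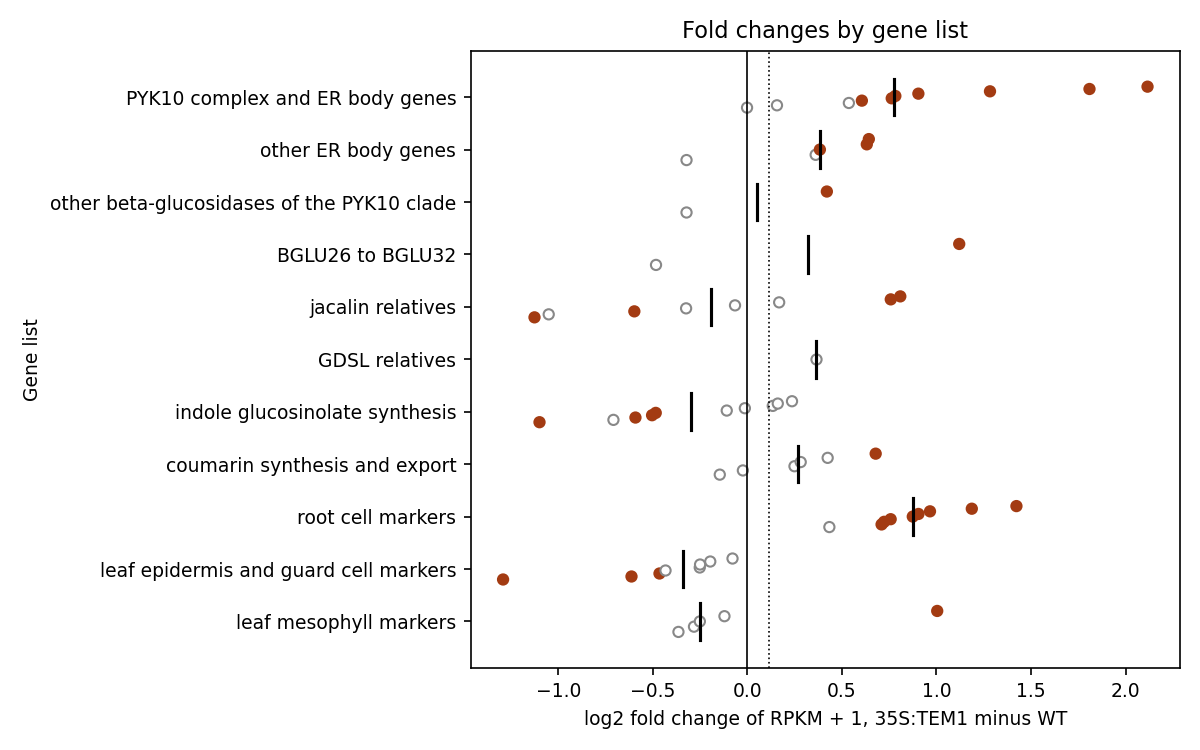
Log2 fold change of RPKM + 1 (35S:TEM1 minus WT) of each tested gene by gene list, with 1 point per gene, filled where it passed an adjusted p under 0.05 over all genes tested, and a black bar at the median of the list. The dotted line is the median of all genes tested (0.12). The 10 genes of the top row have a median of 0.77, root cell markers 0.87 and indole glucosinolate genes -0.30.

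Markers of plant parts moved in the same samples, in which 18.3% of all genes tested were higher and 7.37% lower. Of 9 tested root cell markers 8 rose and 0 fell (median 0.87). In 14 of all 15 listed both 35S:TEM1 samples lay above both WT samples. The share was 47.4% of all genes tested, but 6 of the 15 markers had a mean RPKM under 1 and were not tested. RHD6 among these 6 had 0.106 and 0.257 RPKM against 0 and 0.0888, close to the level of a few reads. The summed RPKM of the 15 markers was 65.2 and 70.5 in 35S:TEM1 and 33.1 and 35.6 in WT, a 1.97-fold difference. Most of it came from SCR (29.8 and 30.6 against 18.4 and 17.5) and SHR (13.5 and 16.7 against 7.92 and 9.06). The summed RPKM of the 10 ER body genes, most of it from PYK10 and PBP1, differed by 1.60-fold. Without 35S:TEM1 replicate 2 the higher markers numbered 4. None of these markers was at 0 in all 4 samples. SCR and SHR, regulators of root patterning, and CASP1 of the endodermis were the most abundant, with log2 fold changes of 0.72, 0.76 and 1.19, of which SHR did not pass without 35S:TEM1 replicate 2 (adjusted p = 0.0539). Of 8 leaf epidermis and guard cell markers 3 fell and 0 rose (median -0.34). Their summed RPKM was 249.9 and 271 against 404 and 357. Most of this sum came from PDF1, with 178 and 205 against 308 and 279. PDF1 of the epidermis had -0.61, ATML1 -0.20 and TMM of the stomatal lineage -0.25, the most abundant of the list, of which PDF1 passed, a call lost without 35S:TEM1 replicate 1 (adjusted p = 0.0630), where 1 marker of the list was lower. The groups overlapped in ATML1 and TMM, and leaving out WT replicate 2 brought ATML1 past the threshold as lower (adjusted p = 0.0402). Of 5 leaf mesophyll markers 1 rose and 0 fell. The 1 that rose was LHCB2.1, with 83.7 and 87.6 RPKM against 51.6 and 34.5 (log2 fold change 1.004 ± 0.18, limma adjusted p = 0.0112). In the other 4 both 35S:TEM1 samples lay below both WT samples. RBCS1A, LHCB1.3 and RBCS3B, the most abundant, had log2 fold changes of -0.28, -0.25 and -0.36 that did not pass. RBCS3B was called lower with equal sample medians (adjusted p = 0.0383), without WT replicate 1 (0.0445), with robust variance (0.0399) and with a minimum mean RPKM of 5 (0.0462), and LHCB1.3 without WT replicate 2 (0.0204). The part of these markers in the rise of the ER body genes was not tested.

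The 5 genes outside the group whose pattern over the 4 samples was closest to that of PYK10, by the Euclidean distance of centred log2(RPKM + 1) values, were ALP, an aleurain-like protease, AT4G21620, CYP704A2, a cytochrome P450, RR1, a type-B response regulator of cytokinin signalling, and AT5G01800. Their distances ran from 0.022 to 0.042. Their log2 fold changes, from 0.58 to 0.61, follow from this choice, as PYK10 had 0.61. Among the 10 genes the nearest to PYK10 were JAL33 at 0.13, PBP1 at 0.17 and NAI2 at 0.19, while GLL22 at 1.33 and BGLU21 at 1.796 were farthest. With 4 samples many genes can come this close.

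The samples were scaled to 20.2 to 30.4 M reads (M, units of 1e+06), as the low values of the table imply. At these totals 3 reads in a gene of 1 kb correspond to an RPKM of 0.0986 to 0.149, a floor that covers counting error only. The 10 genes had from about 98 reads (GLL22 in WT replicate 1) to about 17825 reads (PYK10 in 35S:TEM1 replicate 2), estimated with reference exon lengths. TEM1 itself (AT1G25560) was at 784 and 827 RPKM with the transgene and 16.3 and 30.3 in WT, and reads of the transgene and the endogenous gene were not told apart. Of all 17746 genes tested 3255 were higher and 1308 lower, together 25.7%. Higher genes made up 71.3% of these calls, against 44.1% once samples had equal medians and 52.0% after quantile normalization.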

How the data were processed

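RPKM values, 1 per locus and sample, were deposited by the authors for 32678 loci. Per the submitters' processing notes, the TAIR10 build was used, and Cuffdiff 2.2.1, STAR, FastQC and bcl2fastq 1.8.4 are listed there without their roles. Which tool counted reads, with which annotation, strand setting and filters, is not given in the sources used here. Samples were grouped by the genotype in the labels. Values were analysed as log2(RPKM + 1), so fold changes understate the change of low genes, in genes with a mean RPKM of at least 1 (17746 genes), with limma 3.58.1 in R 4.3.3 (mean-variance trend, 2-sided, Benjamini-Hochberg over all genes tested, 2 residual and 4.17 prior degrees of freedom). Errors of log2 values are SE, those of RPKM are SD (n = 2 per genotype). An exact permutation test of 2 against 2 samples cannot go below p = 0.333 and was not used.

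Read totals were taken from the modal ratio of low values between samples and from values equal to 1 read over the reference exon length (395 loci). RefSeq (TAIR10.1) held 31912 of the loci and all 10 genes. Coding sequences were aligned globally with Biopython 1.88. On simulated data of 17746 genes, 99 of 100 genes shifted by 1 and 100 of 100 shifted by 2 on the log2 scale were recovered, with 20 false calls. The simulated noise was independent between genes, and no sample was offset as a whole. These rates therefore do not carry over to the real samples.

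All 10 genes and every gene of the lists of other ER body genes, PYK10 clade and NAI1 relatives were named; of other lists at most 3 called in each direction with the largest change, of marker lists the 3 most abundant, and the 5 genes nearest to PYK10. AT3G09250 was added because it overlaps PYK10. LHCB2.1, RHD6, MYB34 and JAL32 were added after their values were seen. The genes and lists were chosen with earlier results of these data known. Alternatives were other pseudocounts, filters, scalings and variance settings, a replicate block, and each sample left out.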

Additional observations from a re-analysis of the deposited data

How the results depend on the processing

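Of 139 alternative values of the 10 genes, 125 kept direction and side of the threshold, 6 lost the call, 4 gained one and 4 changed sign. The sign changes were in NAI1, with log2 fold changes of 0.029 when samples were scaled to the same RPKM sum and of -0.26 to 0.26 with 1 sample left out, and in JAL22, with -0.12 to 0.43 with 1 sample left out; neither was called at the main settings. With 1 sample left out, 4 to 9 of the 10 genes were higher, and over all genes 1331 to 2955 were higher and 545 to 1417 lower. Leaving a genotype with 1 sample assumes that it varies like the other genotype. With equal sample medians 1884 genes were higher and 2388 lower, and with quantile normalization 2021 and 1862. Among the other named genes, LHCB1.3 turned from -0.25 to 0.11 with quantile normalization. The shares of summed RPKM moved by less than the spread between samples without the TEM1 locus or with nuclear loci alone. Same-numbered samples deviated together (correlation 0.32 over genes), but with 2 pairs and no label that ties the numbers they share only a number. With the replicate block 4321 genes were higher and 1801 lower, and 8 of the 10 genes were higher, JAL33 being the addition. The block also brought past the threshold MVP1 as higher (adjusted p = 0.0151), BGLU18 and RBCS3B as lower (0.0437 and 0.0194), and 1 gene of BGLU26 to BGLU32, BGLU26, as lower, and it gave 4 lower jacalin-related genes. For the changes above the cause was not tested. With no filter, loci at 0 in all samples were left out.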

Other observations

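Other beta-glucosidases of the family, BGLU26 to BGLU32, were low apart from BGLU26. Of these 7 genes, 4 were listed at 0 in all samples and 2 were tested. In limma 1 was higher and 0 lower, beside 18.3% and 7.37% of all genes tested. At an unadjusted p under 0.05 in limma, 1 was higher and 1 lower. BGLU30, a gene induced by darkness and sugar starvation, was at 3.52 and 1.38 RPKM in the 35S:TEM1 pools and 0.46 and 0.56 in the WT pools (log2 fold change 1.12 ± 0.30, limma adjusted p = 0.0397). That call was lost without 35S:TEM1 replicate 1 (0.66, adjusted p = 0.111), without WT replicate 1 (adjusted p = 0.0782), without WT replicate 2 (0.0665), with equal sample medians (0.0655), with quantile normalization (0.0822) and with no filter on low values (0.0702). BGLU26 (PEN2), which cleaves indole glucosinolates in leaf defence, had 34.1 and 34.1 against 56.6 and 40.8 and did not pass (-0.48, adjusted p = 0.0627); it was chosen after its values were seen. With equal sample medians, with quantile normalization and without WT replicate 2, 1 of the 2 tested genes was lower, and since BGLU30 was above WT in each of these, that gene was BGLU26.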
